A study of Mus musculus with 40 samples.

Results

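The genes described here are the WNT ligands, their Frizzled receptors and the secreted antagonists of the SFRP and DKK families in cultured mouse cardiac fibroblasts. They were taken by gene name and a minimum count, in a choice made with earlier results of these data known. A member is a protein-coding gene whose symbol is Wnt, Fzd, Sfrp or Dkk with a number, and with a total of 10 counts or more in the 40 libraries together. Of 37 such symbols in the annotation, 34 were members, among 25210 genes kept. They were 17 of 19 Wnt genes, all 10 Fzd genes, all 4 Sfrp genes and 3 of 4 Dkk genes. Wnt3a with 2 counts, Wnt9b with 5 and Dkk4 with 0 were under the minimum.

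Fibroblasts came from hearts of TAK1fl/fl mice on a C57BL/6J background, in which loxP sites flank exon 2 of Map3k7, the gene for the kinase TAK1. At passage 1 they received an adenovirus carrying LacZ, as control, or iCre, which deletes the floxed exon in whichever cells are infected and is driven by the CMV promoter. Both viral groups therefore share the floxed alleles and an adenovirus, and differ in the transgene. After serum starvation each was left without ligand (CTRL) or stimulated for 24 h with 1 ligand, giving 10 groups of 4 replicates from male mice. Doses were 20 ng/ml for bFGF, 15 ng/ml for IL-1β, and 10 ng/ml for both TGFβ and TNFα. The growth medium used before starvation also held bFGF, so CTRL cells had been exposed to it earlier. Whole cultures were sequenced, so fewer cells of a type and less RNA per cell cannot be told apart.

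WNT proteins are lipid-modified secreted ligands that bind Frizzled receptors. Together with the co-receptors LRP5 and LRP6 this stabilises β-catenin, and through ROR, RYK and other partners it drives branches that do not need β-catenin. SFRP proteins resemble the extracellular part of a Frizzled and bind WNT, DKK1 and DKK2 bind LRP5 and LRP6, and DKK3 is a divergent member of the DKK family. In the heart this system patterns the embryo and is active in fibroblasts of injured tissue.

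Libraries held 25360947 to 66160732 counts, with a median of 36183962. Map3k7 was lower in iCre than in LacZ cultures with TGFβ, IL-1β and TNFα (log2 fold change -0.67, -0.82 and -0.71). Without ligand and with bFGF the values were -0.28 and -0.40 (edgeR adjusted p = 0.137 and 0.351, or 0.00393 and 0.000409 with the replicate number as a block). Counts over the whole gene include transcripts of the deleted allele, so they measure recombination only in part. The 9 fibroblast markers summed to 15260 to 69042 CPM (read counts scaled to library size) in every library. Their mean sum was 39195 CPM in LacZ CTRL and 57290 CPM in LacZ TGFβ, and 27205 and 54217 CPM in the same iCre groups. In LacZ, means of Col1a1 (4907 to 21540 CPM), Col1a2 (6216 to 14073 CPM) and Thy1 (500 to 558 CPM) rose with TGFβ. Means of Col3a1, Pdgfra (1222 to 315 CPM), Ddr2, Dcn (2083 to 973 CPM), Tcf21 and Vim fell. In iCre these means moved in the same directions except for Col3a1, which went from 10088 to 11278 CPM. Endothelial markers summed to 0.746 to 13.4 CPM, leukocyte markers to 13.3 to 150 CPM and epicardial markers to 0.927 to 6.66 CPM. The epicardial sum was 3.34 to 4.44 CPM in LacZ CTRL. It was lower, without overlap, in LacZ with bFGF, TGFβ and IL-1β (means of 2.05, 1.8 and 1.54 CPM), and averaged 3.36 CPM with TNFα. The pericyte and mural markers Rgs5, Cspg4 and Myh11 summed to 71.7 to 1919 CPM, with a mean of 348 CPM in LacZ CTRL, 700 CPM in iCre CTRL, 930 CPM in LacZ TGFβ and 1322 CPM in iCre TGFβ. The cardiomyocyte markers Tnnt2 and Actc1 summed to 49.2 CPM on average in LacZ CTRL, 27.8 CPM in iCre CTRL and 1.02 to 12.6 CPM in the 8 groups with ligand. The part of these lists in the results below was not tested. Among iCre cultures, the 12 libraries given TGFβ, IL-1β or TNFα had counts that rose with gene GC content by 0.20 to 0.34 log2 units per 10% GC, against -0.25 to 0.00 in the other 28.

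In LacZ fibroblasts without ligand, a pair of antagonist genes and a pair of receptor genes had the highest mean levels per kilobase. Per kilobase of exon, Sfrp1 led with 158 ± 85.1 CPM per kb (SD, n = 4, as for every level with a ± below), followed by Dkk3 with 133 ± 19.1 and the receptor genes Fzd1 with 74.4 ± 6.51 and Fzd2 with 39.1 ± 4.64. Sfrp1 and Dkk3 did not differ beyond the spread of Sfrp1. Sfrp2 stood at 30.3 ± 21.1, Fzd7 at 19.2 ± 1.30 and Fzd4 at 13.9 ± 4.97, and these 3 levels overlapped within their SDs. The level of Sfrp2 also overlapped with that of Fzd2. Wnt5a, the ligand best known for signalling without β-catenin, was the most abundant WNT gene at 11.2 ± 1.81 CPM per kb. Its close relative Wnt5b followed at 6.07 ± 2.86, Wnt9a at 3.78 ± 0.701, Wnt4 at 2.03 ± 0.689 and Wnt11 at 1.67 ± 0.290. Wnt2, Wnt2b and Wnt10b lay at 1.14, 0.869 and 0.292 CPM per kb. Of the other receptors, Fzd8 had 9.07, Fzd6 5.5, Fzd5 3.93, Fzd3 0.634 and Fzd9 0.506 CPM per kb, and of the other antagonists Dkk2 had 4.10 and Sfrp4 3.30.

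Not every member could be followed. Of the 34, 23 reached a mean of 1 CPM in at least 1 group, and 22 had counts in all 40 libraries. The 11 that stayed below 1 CPM in every group were Dkk1, Fzd10, Sfrp5, Wnt3, Wnt6, Wnt7a, Wnt7b, Wnt8a, Wnt8b, Wnt10a and Wnt16. Their highest group means ran from 0.0445 CPM for Sfrp5 in iCre TGFβ to 0.933 CPM for Dkk1 in iCre bFGF. Changes of these genes rest on few reads. The 9 members Fzd3, Fzd10, Sfrp5, Wnt3, Wnt7a, Wnt7b, Wnt8a, Wnt8b and Wnt10a passed the threshold in none of the 17 tests described below, and Fzd3, Wnt7b and Wnt10a did so in some test with the replicate number as a block. Fzd3, the best expressed of the 9, had group means from 5.98 to 9.21 CPM. Antisense or overlapping genes are annotated at Wnt5a (Gm2670, 1254 counts in all), Sfrp2 (Gm26771, 132), Fzd5 (Gm38058, 252), Fzd6 (Gm26704, 193), Wnt7b (AU022754, 4) and Wnt11 (Gm8398, 1). The strand setting of the counting is not given in the sources used here, so reads of such pairs may not have been told apart.

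**Figure D1:**
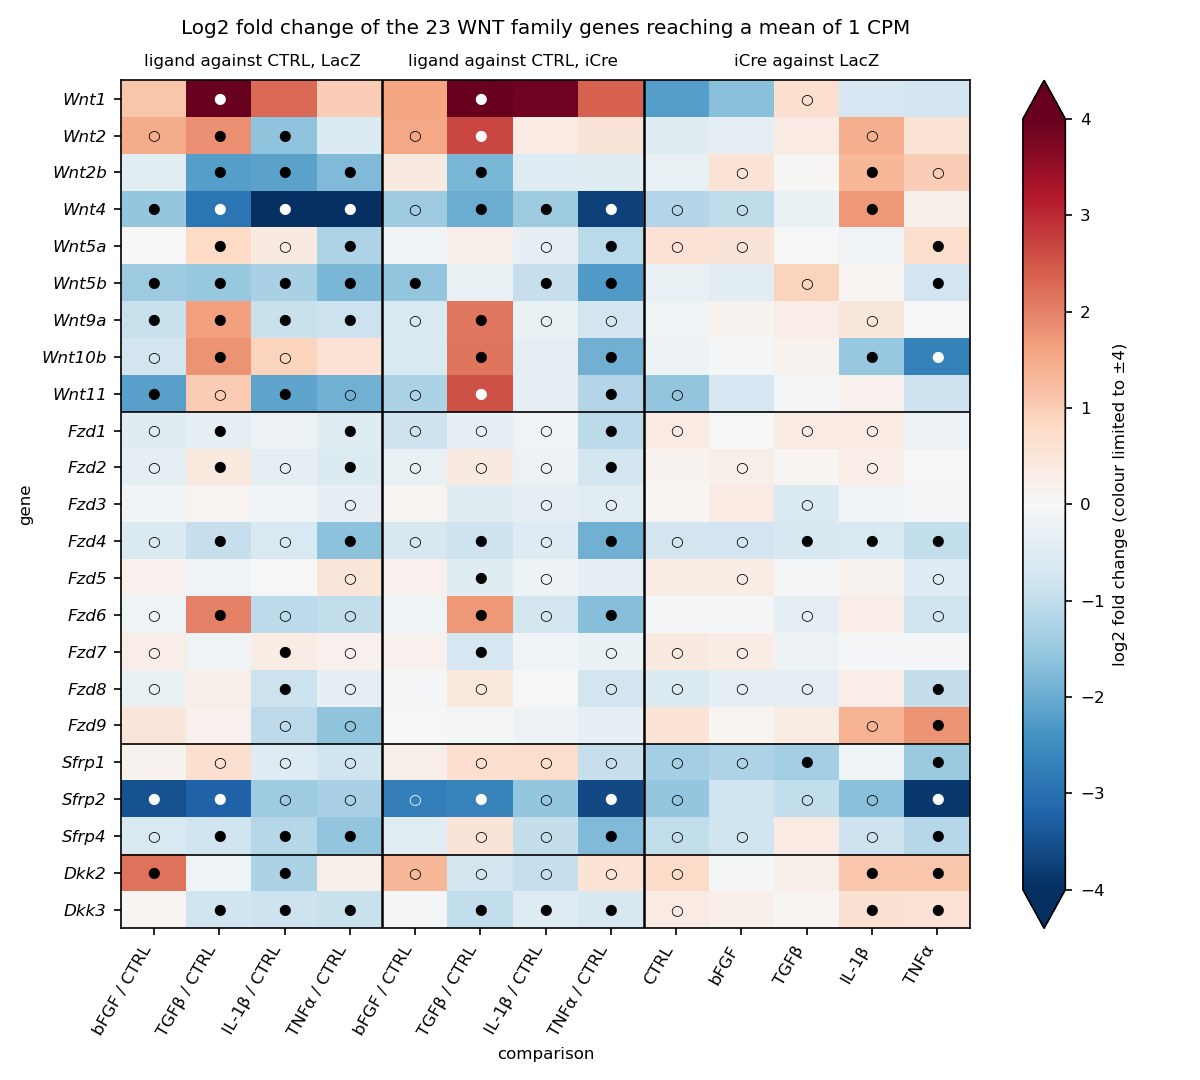
Heat map of log2 fold changes (colour, limited to ±4) for the 23 members that reached a mean of 1 CPM in a group, with genes in rows and comparisons in columns. Filled circles mark an edgeR adjusted p of at most 0.05 and open circles a gene that passed only with the replicate number as a block. Wnt4 and Wnt5b are blue in all 4 LacZ ligand columns, which share their CTRL libraries, while Wnt1, Wnt2, Wnt9a, Wnt10b and Fzd6 are red under TGFβ.

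TGFβ raised several WNT ligand genes and the receptor gene Fzd6 in LacZ fibroblasts. Of the 34 members 7 were higher and 8 lower than in CTRL, that is 20.6% higher and 23.5% lower, against 17.5% and 19.3% of all genes tested. The shares were thus near those of all genes, and the median log2 fold change was -0.18 over the members (-0.15 with genes of 0 to 3 counts at their bound) and -0.17 over all genes. The 7 higher genes were 5 ligands (Wnt1, Wnt2, Wnt5a, Wnt9a and Wnt10b) and 2 receptors (Fzd2 and Fzd6). Values of single libraries are listed throughout in the order of replicates 1 to 4.

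Wnt1, a ligand that acts through β-catenin, went from almost no reads to a measurable level. It had 0.0223, 0.022, 0 and 0 CPM in LacZ CTRL and 2.37, 0.564, 2.3 and 2.69 CPM with TGFβ. This was 2 against 267 counts, a ratio of 170 with a 95% exact interval of 46.5 to 1407 that covers counting error only (adjusted p = 5.6e-05). All 4 TGFβ libraries lay above all CTRL libraries, and replicate 2 was the lowest of them. In iCre fibroblasts the 4 CTRL libraries held no Wnt1 read. TGFβ gave 4.5, 1.15, 2.4 and 4.45 CPM, 392 counts, at least 155-fold higher when the CTRL group is set at 3 counts (adjusted p = 0.000142).

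Wnt10b, the neighbour of Wnt1, moved with it. The pair lies on chromosome 15 of GRCm38, in opposite directions and 11706 bases apart, Wnt10b at 98770712 to 98778150 on the minus strand and Wnt1 at 98789857 to 98793837 on the plus strand. Wnt10b stood at 1.23, 1.12, 0.639 and 0.988 CPM in LacZ CTRL and 3.86, 2.85, 2.91 and 3.94 CPM with TGFβ. The log2 fold change was 1.79 ± 0.26 (SE, adjusted p = 0.000386), and the groups did not overlap. Wnt9a, on chromosome 11 at 59306928 to 59333552, rose from 15.3, 13.1, 12.4 and 9.62 CPM to 32.1, 49.3, 38.2 and 34 CPM, a log2 fold change of 1.63 ± 0.17 (adjusted p = 4.39e-05). Its own neighbour Wnt3a, 16175 bases away, was under the count minimum. Every TGFβ library exceeded every CTRL library for Wnt9a too.

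The 250 bases before the start sites of these 3 ligand genes are shown because their RefSeq start (GRCm38.p6) lay within 5 bases of the annotated gene start and all 3 genes rose with TGFβ. Capitals mark the letters CAGAC or GTCTG, the short SMAD box read on both strands, SMAD proteins being the transcription factors of the TGFβ pathway. The windows are chr15:98789607-98789856 (plus strand), chr15:98778151-98778400 (minus strand) and chr11:59306680-59306929 (plus strand), written 5′ to 3′ on the strand of the gene.
Wnt1: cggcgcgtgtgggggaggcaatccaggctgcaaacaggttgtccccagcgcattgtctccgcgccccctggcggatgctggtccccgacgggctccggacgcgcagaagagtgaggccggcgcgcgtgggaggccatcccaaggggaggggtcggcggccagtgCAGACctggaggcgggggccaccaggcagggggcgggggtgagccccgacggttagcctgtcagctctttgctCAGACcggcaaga
Wnt10b: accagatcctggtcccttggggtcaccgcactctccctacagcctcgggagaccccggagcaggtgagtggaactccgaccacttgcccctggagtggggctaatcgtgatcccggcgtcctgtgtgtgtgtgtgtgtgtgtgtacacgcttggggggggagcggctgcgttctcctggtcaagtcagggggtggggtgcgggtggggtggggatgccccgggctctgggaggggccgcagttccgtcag
Wnt9a: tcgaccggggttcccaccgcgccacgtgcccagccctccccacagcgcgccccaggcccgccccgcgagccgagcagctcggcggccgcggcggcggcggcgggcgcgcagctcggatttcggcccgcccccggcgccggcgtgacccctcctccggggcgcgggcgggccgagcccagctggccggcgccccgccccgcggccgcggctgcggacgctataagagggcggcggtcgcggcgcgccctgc
Wnt1 held 2 SMAD boxes in this window, and Wnt10b and Wnt9a held 0. Over the 23 members with a RefSeq promoter, 11 of 26 windows, or 42.3%, held a SMAD box, against 42.2% of 32851 promoter windows of the same length. The AP-1 element TGANTCA was in 1 member window, one of the 3 of Wnt5b, and in 6.75% of all promoters. The palindromic SMAD element GTCTAGAC was in 0 member windows and in 0.167% of all promoters. The motifs as searched do not contain each other, and a match describes letters, not binding.

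The remaining genes raised by TGFβ were better expressed. Wnt2, a ligand of the β-catenin branch, rose from 2.01, 3.27, 1.51 and 3.49 CPM to 11.3, 8.7, 8.12 and 7.8 CPM (log2 fold change 1.83 ± 0.27, adjusted p = 0.000457), without overlap. Fzd6, a Frizzled tied to planar cell polarity, rose from 15.5, 61.9, 17.9 and 10.7 CPM to 88, 173, 93.8 and 67.8 CPM (2.03 ± 0.51, adjusted p = 0.0105). In both groups replicate 2 was by far the highest for Fzd6, yet its CTRL value still lay below every TGFβ library. Wnt5a rose less, from 76.8, 79.3, 108 and 87.9 CPM to 111, 255, 120 and 118 CPM (0.79 ± 0.26, adjusted p = 0.0336). Replicate 2 was far above the other TGFβ libraries for Wnt5a, and without it the log2 fold change was 0.36 (adjusted p = 0.034). Fzd2 rose from 143 ± 17 to 185 ± 19.9 CPM (0.38 ± 0.12, adjusted p = 0.0249).

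Wnt11, a ligand of the branch without β-catenin, showed how the pairing of replicates bears on a call. In LacZ fibroblasts it stood at 8.62, 6.02, 6.83 and 6.13 CPM in CTRL and 24.3, 4.52, 12.2 and 13.3 CPM with TGFβ, where 3 of 4 replicates were higher and replicate 2 was lower. The log2 fold change was 1.00 ± 0.40 with an adjusted p of 0.0769, or 0.0247 with the replicate block. In iCre fibroblasts CTRL was lower, at 3.27, 2.91, 1.58 and 1.49 CPM, and TGFβ gave 18.3, 4.59, 9.96 and 20.8 CPM (2.56 ± 0.46, adjusted p = 0.00126). The difference between these 2 responses did not pass the test of the interaction.

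Among the 8 genes lowered by TGFβ were 3 ligands and 3 antagonists. Wnt4, a ligand of kidney and gonad development, fell from 4.49, 11, 10.2 and 8.4 CPM to 0.635, 0.894, 1.66 and 1.29 CPM (log2 fold change -2.91 ± 0.35, adjusted p = 0.000119). Wnt2b fell from 5.18, 2.28, 4.26 and 2.88 CPM to 0.717, 0.376, 1.26 and 0.833 CPM (-2.19 ± 0.39, adjusted p = 0.00149). Wnt5b fell from 15, 27.2, 11.2 and 11.1 CPM to 4.25, 8.42, 5.56 and 3.86 CPM (-1.51 ± 0.33, adjusted p = 0.00429). None of the 3 overlapped between groups. Sfrp2 fell from 104, 11.9, 102 and 43.3 CPM to 2.81, 6.33, 12.5 and 5.83 CPM (-3.24 ± 0.66, adjusted p = 0.00298). Its CTRL libraries spread widely, and that of replicate 2 lay below the highest TGFβ library, although each replicate fell.

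Dkk3 fell from 447 ± 64.0 to 256 ± 88.7 CPM (-0.79 ± 0.23) and Sfrp4 from 13.9, 15.5, 16.2 and 9.65 CPM to 8.39, 6.02, 11.1 and 5.64 CPM (-0.80 ± 0.24). Of the receptors, Fzd4 fell from 119, 44.1, 105 and 105 CPM to 38.3, 50.2, 55 and 54.2 CPM (-0.91 ± 0.27) and Fzd1 from 312 ± 27.3 to 243 ± 24.3 CPM (-0.35 ± 0.11). Fzd4 had its lowest CTRL value in replicate 2 and did not fall there, and the Sfrp4 groups overlapped although each replicate fell. With 1 replicate number left out at a time, 8 of the 15 TGFβ calls were always kept. The threshold was missed by Wnt5a without 1 or 4, Sfrp4 without 1 or 2, Fzd6 without 1 or 3, Dkk3 without 3 or 4, Fzd4 without 1, 3 or 4, and Fzd1 and Fzd2 without 2, 3 or 4, at an adjusted p of 0.0526 to 0.144 and in the same direction.

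In iCre fibroblasts TGFβ gave 6 higher and 7 lower members, against 18.6% and 18.8% of all genes. The iCre calls were Wnt1, Wnt2, Wnt9a, Wnt10b, Wnt11 and Fzd6 upward, and Wnt2b, Wnt4, Sfrp2, Dkk3, Fzd4, Fzd5 and Fzd7 downward. Of these 13, Wnt4 was lost without replicate 3, Dkk3 and Fzd6 without 1 or 3, and Fzd4 and Fzd7 without 1, 3 or 4, at an adjusted p of 0.0549 to 0.147.

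Among the higher genes in iCre fibroblasts, Wnt2 rose from 2.65, 0.888, 1.44 and 2.43 CPM to 15.7, 7.44, 11.2 and 11.5 CPM (2.66 ± 0.36, adjusted p = 0.000181). Wnt9a rose from 12.9, 8.84, 13.1 and 10.4 CPM to 53.8, 64.2, 38.1 and 35.1 CPM (2.10 ± 0.21, adjusted p = 2.57e-05) and Wnt10b from 1.05, 0.52, 0.957 and 0.939 CPM to 4.53, 3.85, 2.43 and 4.37 CPM (2.15 ± 0.30, adjusted p = 0.000265). These 3 ligand genes did not overlap between groups. The receptor gene Fzd6 rose from 11.5, 53.5, 21.3 and 13.9 CPM to 63.5, 149, 74.1 and 44.8 CPM (1.74 ± 0.50, adjusted p = 0.0184). Replicate 2 was the highest for Fzd6 in both groups, and its CTRL value lay above the lowest TGFβ library.

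Of the lower genes in iCre fibroblasts, Wnt4 fell with TGFβ from 4.55, 3.12, 4.8 and 2.82 CPM to 2.18, 0.296, 0.637 and 0.636 CPM (-2.0 ± 0.52, adjusted p = 0.0109) and Wnt2b from 4.88, 1.56, 2.63 and 2.99 CPM to 0.959, 0.296, 0.899 and 1.19 CPM (-1.82 ± 0.45, adjusted p = 0.00857). Sfrp2 fell to 6.81, 1.74, 3.67 and 1.91 CPM (-2.66 ± 0.66, adjusted p = 0.00893) and Fzd4 from 75.1, 27.1, 63.1 and 63.9 CPM to 31.8, 38.1, 29.7 and 28.8 CPM (-0.82 ± 0.26, adjusted p = 0.0288). Wnt4 and Wnt2b did not overlap between groups. The Sfrp2 groups overlapped although each replicate fell, and Fzd4 fell in 3 of 4 replicates and was higher with TGFβ in replicate 2. Dkk2 stood at 11.5, 17.8, 13.7 and 18.2 CPM with TGFβ in iCre (-0.75 ± 0.35, adjusted p = 0.124) and at 12, 12.4, 17.2 and 10.9 CPM in LacZ fibroblasts (-0.18 ± 0.29, adjusted p = 0.656). Wnt5a had 119, 80.8, 191 and 136 CPM in iCre CTRL and 96.9, 192, 180 and 146 CPM with TGFβ (0.24 ± 0.26, adjusted p = 0.498).

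**Figure D2:**
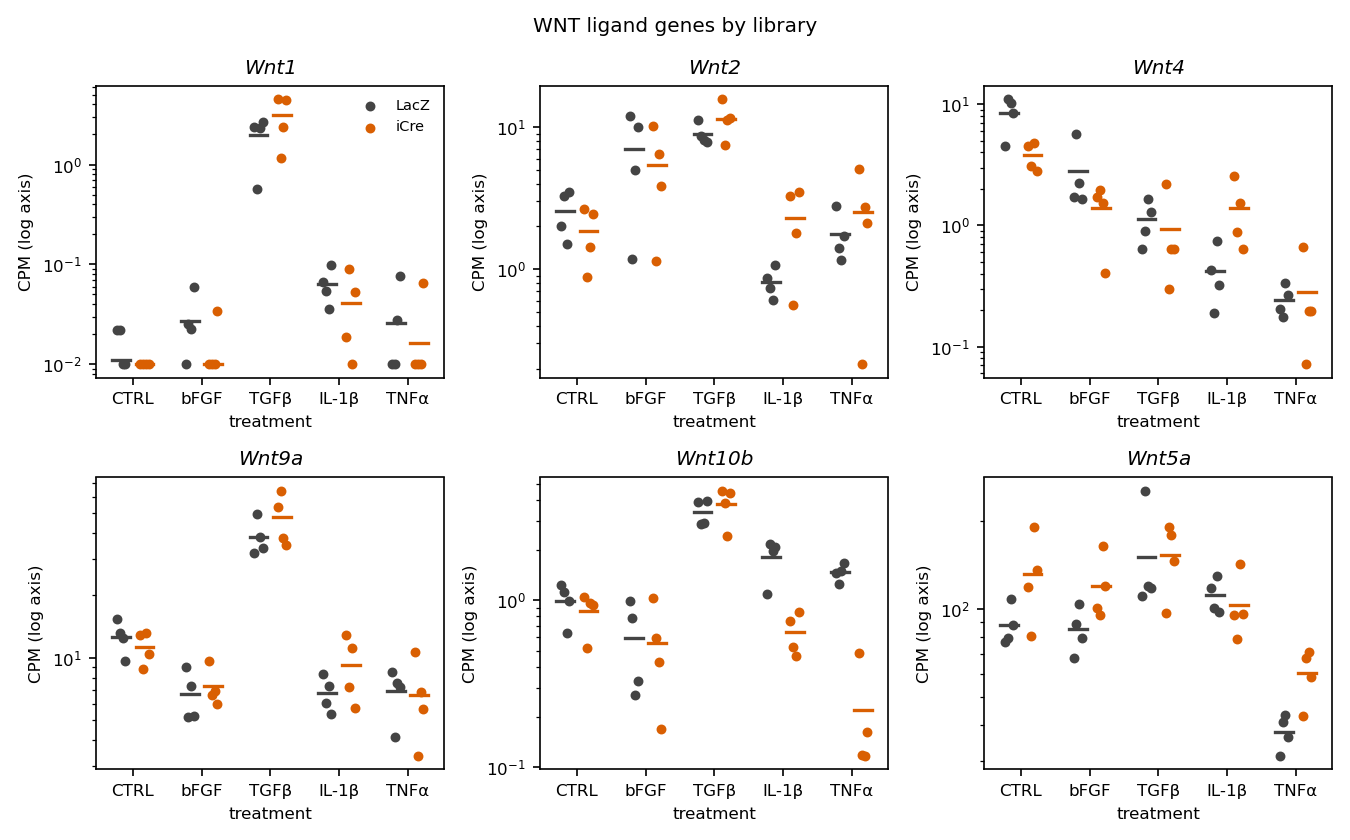
Expression of 6 WNT ligand genes in CPM (log axis) by treatment, with 1 point per library, LacZ in grey, iCre in orange and a bar at the mean of 4 libraries. Libraries without a read, and means below it, are drawn at 0.01. Wnt1 is at or near the floor except under TGFβ, Wnt4 is highest in LacZ CTRL with a mean of 8.51 CPM, and Wnt10b is lower in iCre than in LacZ under TNFα (0.220 against 1.47 CPM).

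bFGF raised the antagonist genes Dkk1 and Dkk2 and lowered 4 ligand genes and Sfrp2. In LacZ fibroblasts 2 members were higher and 5 lower, against 7.0% and 4.64% of all genes. With the replicate block 4 were higher and 13 lower, against 14.2% and 13.1%. Dkk2 stood at 11.8, 27.1, 11.4 and 10.5 CPM in CTRL and at 59.8, 73.5, 68.7 and 67.5 CPM with bFGF (log2 fold change 2.17 ± 0.28, adjusted p = 0.00207). All bFGF libraries were above all CTRL libraries, of which replicate 2 was the highest. Dkk1 had 1 count in the 4 CTRL libraries and 91 with bFGF, at 0.165, 0.0503, 0.784 and 1.47 CPM, a ratio of 111 with a counting interval of 19.5 to 4442 (adjusted p = 0.0142). The 2 DKK genes are antagonists of the same co-receptors.

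Sfrp2 fell with bFGF, to 12, 1.84, 7.5 and 2.06 CPM (-3.48 ± 0.78, adjusted p = 0.0188), and the highest bFGF library was level with the lowest CTRL library. Wnt11 fell to 2.11, 1.99, 1.19 and 0.748 CPM (-2.17 ± 0.32, adjusted p = 0.0034), without overlap. Wnt4 fell to 1.72, 5.71, 2.26 and 1.64 CPM (-1.56 ± 0.43, adjusted p = 0.0439), where replicate 2 stayed inside the CTRL range. Wnt5b fell to 7.76, 7.42, 5.11 and 3.02 CPM (-1.44 ± 0.35) and Wnt9a to 9.05, 5.16, 7.32 and 5.2 CPM (-0.90 ± 0.21). Wnt2 stood at 12, 1.18, 4.95 and 9.96 CPM, higher than CTRL in 3 of 4 replicates (1.47 ± 0.58, adjusted p = 0.138, or 0.0361 with the replicate block). Dkk2 alone of the 7 calls was kept under every omission of a replicate number. The other calls missed the threshold without replicate 3 (Wnt11), without replicate 3 or 4 (Dkk1, Sfrp2 and Wnt9a) or without 1, 3 or 4 (Wnt4 and Wnt5b), at an adjusted p of 0.0526 to 0.247.

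In iCre fibroblasts bFGF gave 1 lower member, Wnt5b (16.1, 12.9, 13.4 and 9.98 CPM to 4.06, 7.39, 3.6 and 2.1 CPM, -1.59 ± 0.33, adjusted p = 0.0382), and 0 higher, against 0.635% and 1.79% of all genes. At an unadjusted p under 0.05, 4 were higher and 7 lower, against 9.8% and 6.91% of all genes. DESeq2 called 2 higher and 5 lower, against 6.69% and 5.06% of the genes to which it gave an adjusted p, the base of all DESeq2 shares here. The replicate block gave 4 higher and 8 lower, against 9.28% and 7.41%. Without replicate 1, 3 or 4 Wnt5b missed the threshold as well, at an adjusted p of 0.112 to 0.349. Dkk2 stood at 17.5, 50.5, 21.4 and 14.7 CPM in iCre CTRL and at 64.1, 95.2, 58.4 and 44.8 CPM with bFGF, higher in 4 of 4 replicates (1.34 ± 0.38, adjusted p = 0.105, or 3.22e-07 with the block). Sfrp2 stood at 54, 6.7, 19.3 and 10.8 CPM in iCre CTRL and at 4.78, 5.04, 2.14 and 1.46 CPM with bFGF (-2.73 ± 0.66, adjusted p = 0.0636, or 0.000106 with the block). Wnt5a had 68, 88.7, 104 and 79.6 CPM with bFGF in LacZ (-0.03 ± 0.15, adjusted p = 0.933) and 101, 95.3, 165 and 120 CPM in iCre fibroblasts (-0.12 ± 0.25, adjusted p = 0.864). No member had a different response to bFGF in iCre and LacZ fibroblasts, with 0 at an unadjusted p under 0.05, against 1.82% of all genes higher and 1.21% lower, and 0 by DESeq2. The share of all genes called was 0.0% in either direction by both tools.

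IL-1β lowered members of all 4 families in LacZ fibroblasts. The count was 10 lower and 1 higher, against 9.55% and 11.1% of all genes. As a share of the members, 29.4% were lower and 2.94% higher, and the median log2 fold change was -0.56 over the members and -0.10 over all genes. With the replicate block 16 were lower and 4 higher, against 17.3% and 16.3%. Wnt4 fell the most, to 0.43, 0.19, 0.748 and 0.324 CPM (-4.34 ± 0.41, adjusted p = 0.000103). Wnt2b fell to 0.96, 0.624, 0.89 and 0.823 CPM (-2.14 ± 0.30, adjusted p = 0.00102), Wnt11 to 1.03, 2.61, 1.32 and 1.35 CPM (-2.11 ± 0.29, adjusted p = 0.000774) and Wnt2 to 0.861, 0.733, 0.605 and 1.07 CPM (-1.62 ± 0.33, adjusted p = 0.0062). These 4 ligand genes did not overlap with CTRL.

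A further pair of ligand genes fell with IL-1β, Wnt5b to 6.36, 11.2, 4.84 and 3.47 CPM (-1.30 ± 0.38) and Wnt9a to 8.34, 6.05, 7.26 and 5.33 CPM (-0.89 ± 0.18). Among the antagonists, Dkk2 fell to 5.46, 9.17, 6.12 and 4.21 CPM (-1.26 ± 0.33, adjusted p = 0.021), Dkk3 to 250 ± 27.9 CPM (-0.83 ± 0.13, adjusted p = 0.00168) and Sfrp4 to 7.35, 6.13, 5.91 and 5.61 CPM (-1.13 ± 0.17, adjusted p = 0.00136). Fzd8 fell to 29.7 ± 4.26 CPM (-0.86 ± 0.20), and Fzd7 was the gene that rose, from 86.9 ± 5.87 to 106 ± 4.46 CPM (0.30 ± 0.07). Wnt10b stood at 1.09, 2.17, 1.96 and 2.09 CPM, above CTRL in 3 of 4 replicates (0.90 ± 0.30, adjusted p = 0.0607, or 0.00474 with the block). Under the omission of a replicate number, Dkk2, Fzd7 and Wnt5b missed the threshold without 1, 3 or 4 and Fzd8 without 3 or 4, at an adjusted p of 0.0547 to 0.119. The other 7 calls were kept.

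In iCre fibroblasts IL-1β gave 3 lower members and 0 higher, against 6.88% and 9.38% of all genes. At an unadjusted p under 0.05, 5 were lower and 2 higher, against 12.9% and 15.6%, and DESeq2 called 5 lower and 0 higher, against 14.8% and 15.8%. The replicate block called 14 lower and 1 higher, against 15.6% and 18.1%. The 3 genes were Wnt4 (4.55, 3.12, 4.8 and 2.82 CPM to 2.54, 0.891, 1.53 and 0.642 CPM), Wnt5b (16.1, 12.9, 13.4 and 9.98 CPM to 6.9, 9.14, 7.14 and 4.31 CPM) and Dkk3 (563 ± 62.0 to 388 ± 50.2 CPM). Each missed the threshold without replicate 3, Wnt4 also without 4, and Wnt5b and Dkk3 also without 1, at an adjusted p of 0.0559 to 0.182. Wnt5a had 95.3, 78.6, 143 and 95.8 CPM with IL-1β in iCre (-0.33 ± 0.25, adjusted p = 0.434) and 118, 101, 130 and 97.6 CPM in LacZ fibroblasts (0.35 ± 0.13, adjusted p = 0.089). Sfrp2 had 15.1, 5.34, 8.48 and 1.79 CPM in iCre (-1.54 ± 0.70, adjusted p = 0.185) and 25.4, 33.4, 30.8 and 7.53 CPM in LacZ (-1.43 ± 0.62, adjusted p = 0.139). Neither gene passed the threshold with IL-1β in either virus group.

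TNFα lowered 5 ligand genes, 3 receptor genes and 2 antagonist genes in LacZ fibroblasts and raised Dkk1 and Wnt6. Thus 10 members were lower and 2 higher, against 10.4% and 10.9% of all genes, or 29.4% and 5.88% of the members. With the block 18 were lower and 5 higher, against 18.4% and 17.2% of all genes. The median log2 fold change was -0.77 over the members (-0.65 with genes of 0 to 3 counts at their bound) and -0.08 over all genes. Wnt4 fell to 0.203, 0.175, 0.332 and 0.265 CPM (-5.09 ± 0.35, adjusted p = 1.58e-05). Wnt5a, which had risen with TGFβ, fell to 31.3, 40.8, 43.1 and 36.3 CPM (-1.22 ± 0.13, adjusted p = 0.000249). Wnt2b fell to 1.36, 0.664, 0.912 and 1.4 CPM (-1.76 ± 0.34), Wnt5b to 5.49, 4.82, 3.9 and 3.83 CPM (-1.83 ± 0.29) and Wnt9a to 8.51, 4.12, 7.57 and 7.24 CPM (-0.87 ± 0.22). For these 5 ligand genes every TNFα library was below every CTRL library.

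Fzd4, a receptor of WNT ligands and of norrin, fell with TNFα from 119, 44.1, 105 and 105 CPM to 32.8, 19.2, 32.3 and 36.9 CPM (-1.63 ± 0.30, adjusted p = 0.00451). Fzd1 and Fzd2 fell to 223 ± 16.1 and 97.8 ± 17.7 CPM (-0.48 ± 0.09 and -0.55 ± 0.14). Sfrp4 fell to 4.54, 5.28, 5.28 and 3.26 CPM (-1.58 ± 0.20, adjusted p = 0.000575) and Dkk3 to 242 ± 36.4 CPM (-0.88 ± 0.14). Dkk1 had 67 counts against 1 in CTRL, at 0.339, 1.4, 0.193 and 0.379 CPM, a ratio of 101 with a counting interval of 17.4 to 4030 (adjusted p = 0.00246). Wnt6 rose from 0.153 ± 0.0591 to 0.585 ± 0.385 CPM (1.90 ± 0.53, adjusted p = 0.0291), a call lost under the omission of any replicate number, with a log2 fold change of 1.1 without replicate 2. Fzd2 and Wnt9a missed the threshold without replicate 3 or 4 and Wnt2b without replicate 3, so that 8 of the 12 calls were always kept, and the adjusted p where a call was lost was 0.051 to 0.124.

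In iCre fibroblasts 13 members were lower with TNFα and 0 higher, against 12.3% and 14.7% of all genes. Before adjustment, at p under 0.05, 17 were lower and 0 higher, against 18.4% and 19.4%, and DESeq2 called 16 lower and 0 higher, against 20.7% and 21.1%. The 13 were 6 ligand genes (Wnt4, Wnt5a, Wnt5b, Wnt10b, Wnt11 and Wnt16), 4 receptor genes (Fzd1, Fzd2, Fzd4 and Fzd6), Sfrp2, Sfrp4 and Dkk3. Wnt5b fell from 16.1, 12.9, 13.4 and 9.98 CPM to 2.57, 2.95, 2.86 and 2.14 CPM (-2.28 ± 0.18, adjusted p = 0.000124). Sfrp2 fell to 5.65, 0.214, 0.779 and 0.616 CPM (-3.61 ± 0.99, adjusted p = 0.0221), and replicate 1 was the highest before and after. Wnt4 fell to 0.661, 0.0714, 0.195 and 0.195 CPM (-3.72 ± 0.55, adjusted p = 0.00103), Wnt11 to 1.3, 0.809, 1.01 and 0.876 CPM (-1.17 ± 0.33, adjusted p = 0.0243) and Fzd6 to 5.09, 12.1, 8 and 5.12 CPM (-1.69 ± 0.49, adjusted p = 0.0281). Sfrp4 fell from 15.1, 4.35, 5.22 and 3.48 CPM to 3.15, 1.59, 1.69 and 1.69 CPM (-1.76 ± 0.47, adjusted p = 0.0204). Of these genes only Fzd6 overlapped between CTRL and TNFα, and Sfrp4 was highest in replicate 1 before and after. Wnt16 fell from 0.544 ± 0.234 to 0.0295 ± 0.0242 CPM (adjusted p = 0.00132). Of the 13 calls 5 were kept under every omission, and the others had an adjusted p of 0.0507 to 0.128 where they were lost. These were Dkk3, Fzd2 and Sfrp4 without replicate 3, Fzd6, Sfrp2 and Wnt10b without 3 or 4, Wnt5a without 4, and Wnt11 under any omission.

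**Figure D3:**
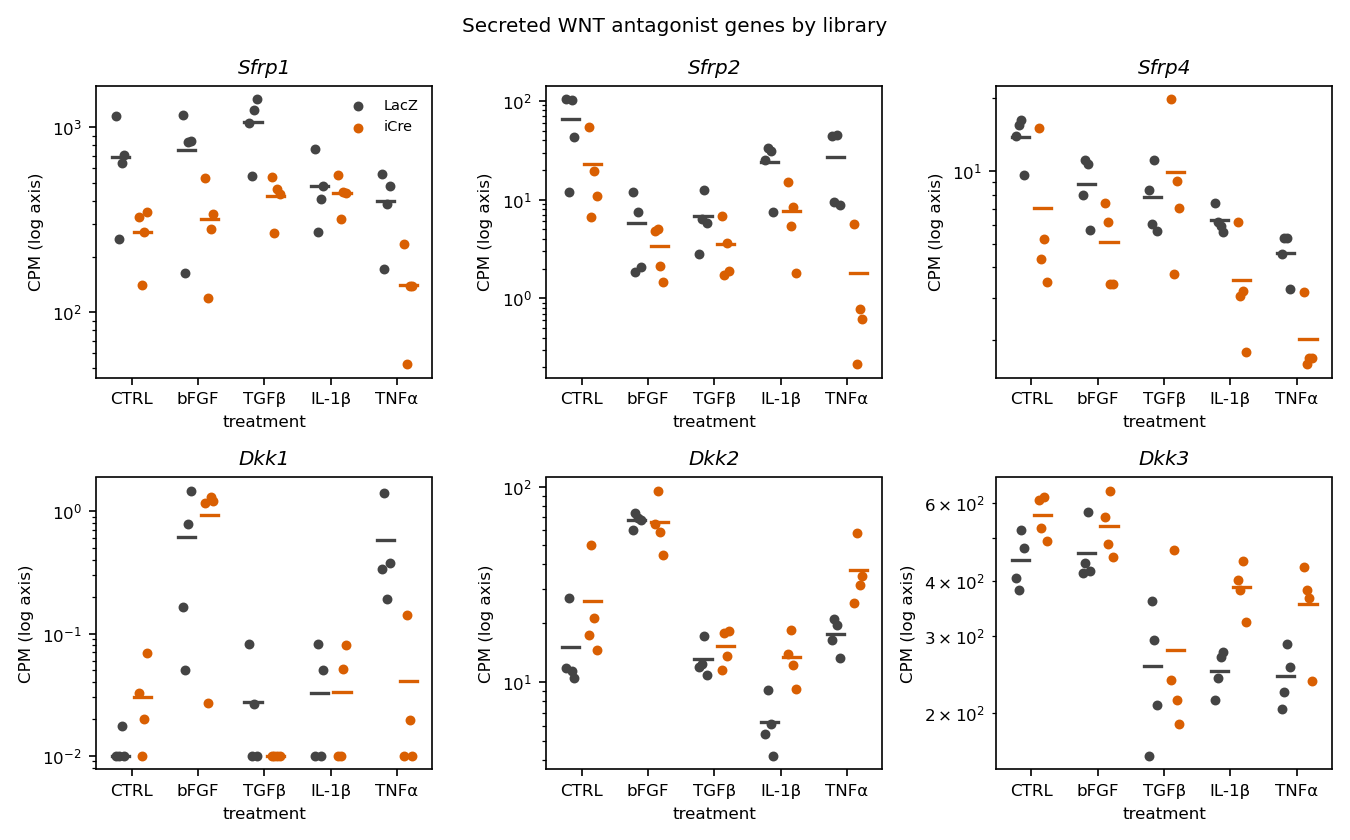
Expression of the secreted antagonist genes in CPM (log axis) by treatment, with 1 point per library, LacZ in grey, iCre in orange and a bar at the mean of 4 libraries. Libraries without a read, and means below it, are drawn at 0.01. Dkk2 is highest under bFGF (means of 67.4 CPM with LacZ and 65.6 CPM with iCre), and Sfrp2 is lowest in iCre fibroblasts with TNFα (1.81 CPM).

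The deletion of TAK1 was compared with LacZ under each condition. Without ligand, 0 members were called higher and 0 lower, against 0.0278% and 0.0476% of all genes. At an unadjusted p under 0.05, 4 were higher and 5 lower, against 6.44% and 7.59%, and DESeq2 called 2 higher and 3 lower, against 4.95% and 3.92%. The replicate block called 5 higher (Dkk2, Dkk3, Fzd1, Fzd7 and Wnt5a) and 7 lower (Fzd4, Fzd8, Sfrp1, Sfrp2, Sfrp4, Wnt4 and Wnt11), against 6.79% and 7.7% of all genes. Wnt11 had 8.62, 6.02, 6.83 and 6.13 CPM in the LacZ libraries and 3.27, 2.91, 1.58 and 1.49 CPM in iCre, without overlap (-1.59 ± 0.28, adjusted p = 0.0706, or 1.14e-05 with the block). Sfrp1 had means of 689 ± 372 and 272 ± 93.8 CPM and was lower in 4 of 4 replicates (-1.36 ± 0.42, adjusted p = 0.203, or 2.51e-06 with the block). Dkk2 was higher in 4 of 4 replicates, with 26.0 ± 16.5 CPM in iCre against 15.2 ± 7.95 CPM (0.77 ± 0.42, adjusted p = 0.446, or 4.71e-05 with the block).

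With bFGF 0 members differed between iCre and LacZ by edgeR, against 0.0% of all genes in either direction, and 0 by DESeq2, against 1.62% higher and 1.38% lower. At an unadjusted p under 0.05, 3 were higher and 4 lower, against 4.97% and 5.28%. The block called 5 higher and 5 lower, against 6.64% and 7.22%. With TGFβ 2 members were lower in iCre and 0 higher, against 5.87% and 2.51% of all genes. An unadjusted p under 0.05 was reached by 3 lower and 4 higher members, against 11.3% and 9.89%, and DESeq2 called 2 lower and 1 higher, against 15.5% and 11.2%. Sfrp1 had 1063 ± 375 CPM with LacZ and 425 ± 113 CPM with iCre (-1.35 ± 0.29, adjusted p = 0.0176). Fzd4 had 38.3, 50.2, 55 and 54.2 CPM with LacZ and 31.8, 38.1, 29.7 and 28.8 CPM with iCre (-0.65 ± 0.13, adjusted p = 0.0145). The groups did not overlap for either gene, and both missed the threshold without replicate 3 or 4, at an adjusted p of 0.136 to 0.17. The block called 6 lower and 3 higher, against 11.1% and 9.67%, and 6 lower and 1 higher when GC content was also corrected, against 5.83% and 3.78%. The responses of Wnt1, Wnt2, Wnt9a, Wnt10b and Fzd6 to TGFβ were compared by the interaction test, which called 0 members, against 0.893% of all genes higher and 3.62% lower. With an unadjusted p under 0.05 there were 3 higher and 1 lower, against 6.39% and 8.84%, and DESeq2 called 1 higher and 0 lower, against 5.69% and 9.57%. With the block 1 member was called, against 2.36% of all genes higher and 5.68% lower. It was Wnt5b, with a higher response in iCre (1.18, adjusted p = 0.0316). Wnt5b was not called when GC content was also corrected, where Sfrp4 was higher and Fzd7 lower, against 1.05% and 1.56% of all genes.

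With IL-1β the iCre fibroblasts had 4 members higher and 2 lower, against 7.14% and 8.98% of all genes. The block called 10 higher and 4 lower, against 14.6% and 14.9%, and 7 higher and 6 lower with GC content corrected, against 10.8% and 11.6%. Wnt2b stood at 2.41, 1.85, 2.23 and 1.87 CPM in iCre and at 0.96, 0.624, 0.89 and 0.823 CPM in LacZ (1.33 ± 0.25, adjusted p = 0.00479). Wnt4 stood at 2.54, 0.891, 1.53 and 0.642 CPM in iCre and at 0.43, 0.19, 0.748 and 0.324 CPM in LacZ (1.74 ± 0.52, adjusted p = 0.0479), with the lowest iCre library inside the LacZ range. Dkk2 stood at 13.9, 18.5, 12.3 and 9.28 CPM in iCre (1.10 ± 0.26, adjusted p = 0.0153) and Dkk3 at 388 ± 50.2 CPM (0.62 ± 0.12, adjusted p = 0.00663). In the other direction Wnt10b had 0.748, 0.527, 0.464 and 0.856 CPM in iCre against 1.09, 2.17, 1.96 and 2.09 CPM in LacZ (-1.51 ± 0.32, adjusted p = 0.00894), and Fzd4 46.2, 29.4, 47.1 and 35.6 against 65.6, 56.7, 56.5 and 63 CPM (-0.62 ± 0.15, adjusted p = 0.0186). Each of the 6 missed the threshold under some omission, at an adjusted p of 0.0516 to 0.193, namely Wnt2b, Wnt10b and Dkk3 without replicate 3, Fzd4 without 4, Dkk2 without 1 or 3 and Wnt4 without 1, 3 or 4.

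The fibroblast marker sum was also lower in iCre with IL-1β, with libraries from 22784 to 35309 CPM against 36390 to 69042 CPM. Means of Col1a1, Col1a2, Col3a1 (9888 against 23326 CPM), Dcn (1602 against 4862 CPM), Pdgfra and Tcf21 were lower in iCre. Vim (3040 against 2003 CPM) and Thy1 (547 against 495 CPM) had higher means, and Ddr2 had 546 against 551 CPM. The pericyte and mural marker sum was 745 against 592 CPM with overlapping libraries, while its member Cspg4 had 26.4 to 71.1 CPM against 9.47 to 13.9 CPM. The cardiomyocyte markers summed to 1.93 to 15.8 CPM in iCre against 0.326 to 1.64 CPM, almost all of it Tnnt2, with Actc1 at a mean of 0.00429 against 0.0136 CPM. The endothelial, leukocyte and epicardial marker sums overlapped, and the part of these lists in the differences with IL-1β was not tested.

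The response to IL-1β itself differed between iCre and LacZ fibroblasts for 4 members. The interaction was positive for 3 and negative for 1, against 2.76% and 4.95% of all genes. Wnt4 fell by 4.34 log2 units in LacZ and by 1.42 in iCre, an interaction of 2.91 ± 0.61 (adjusted p = 0.00698), which was kept under every omission. Wnt2b had an interaction of 1.62 ± 0.45 (adjusted p = 0.0356). Wnt11 had an interaction of 1.75 ± 0.44 (adjusted p = 0.0196). With IL-1β it had 1.85, 2.36, 1.41 and 1.53 CPM in iCre and 1.03, 2.61, 1.32 and 1.35 CPM in LacZ. Its CTRL levels were 3.27, 2.91, 1.58 and 1.49 CPM in iCre and 8.62, 6.02, 6.83 and 6.13 CPM in LacZ. Fzd7 had an interaction of -0.46 ± 0.12 (adjusted p = 0.0276). Its libraries held 101, 93.1, 117 and 94.1 CPM with IL-1β in iCre and 110, 110, 104 and 101 CPM in LacZ. In CTRL they held 110, 117, 125 and 101 CPM in iCre and 92.1, 91.9, 81.7 and 81.9 CPM in LacZ. These last 3 were lost without replicate 3 or 4, and for Wnt11 also without 1 and for Fzd7 without 1 or 2, at an adjusted p of 0.0777 to 0.28. With the block 7 were positive and 3 negative, against 7.9% and 8.98%.

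With TNFα 8 members were lower and 4 higher in iCre fibroblasts, against 12.6% and 14.8% of all genes. The block called 10 lower and 6 higher, against 15.1% and 17.1%. With GC content also corrected, 13 were lower and 5 higher, against 3145 and 3976 of 24970 genes. All 3 antagonist genes of the Sfrp family that were well expressed were lower. Sfrp2 fell from 44.4, 9.37, 44.7 and 8.86 CPM in LacZ to 5.65, 0.214, 0.779 and 0.616 CPM in iCre (-3.86 ± 0.98, adjusted p = 0.0153), Sfrp1 from 399 ± 166 to 141 ± 74.2 CPM (-1.48 ± 0.45, adjusted p = 0.0334) and Sfrp4 from 4.54, 5.28, 5.28 and 3.26 to 3.15, 1.59, 1.69 and 1.69 CPM (-1.15 ± 0.28, adjusted p = 0.0124). Sfrp2 and Sfrp4 did not overlap between groups. Dkk1 fell from 67 counts to 7 (-3.64 ± 1.00, adjusted p = 0.0226), with 0, 0.143, 0.0195 and 0 CPM in iCre. Against this, Dkk2 rose from 16.4, 21.1, 19.7 and 13.3 to 25.5, 58.2, 31.3 and 34.8 CPM (1.11 ± 0.25, adjusted p = 0.00828) and Dkk3 from 242 ± 36.4 to 354 ± 82.3 CPM (0.57 ± 0.18, adjusted p = 0.044). Dkk3 was lost under RLE normalization (adjusted p = 0.0599), under the filterByExpr filter (0.056) and with block and GC correction (0.0764), and without replicate 1 its log2 fold change was 0.37 (adjusted p = 0.201).

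Among ligands and receptors under TNFα, Wnt10b had the lowest adjusted p, with 1.46, 1.26, 1.49 and 1.67 CPM in the LacZ libraries and 0.483, 0.119, 0.117 and 0.162 CPM in the iCre libraries (-2.70 ± 0.48, adjusted p = 0.00243). Wnt5b was lower, at 2.63 against 4.51 CPM (-0.76 ± 0.20), and Wnt5a higher, at 42.9, 67.8, 71.3 and 58.5 against 31.3, 40.8, 43.1 and 36.3 CPM (0.69 ± 0.16, adjusted p = 0.0101). Fzd4 was lower at 17.1, 9.8, 16.8 and 16 CPM (-1.0 ± 0.23, adjusted p = 0.00899), as was Fzd8 (21.9 against 42.8 CPM, -0.94 ± 0.29). Fzd9 was higher, at 1.55, 0.809, 1.5 and 1.43 CPM in iCre against 0.373, 0.21, 0.58 and 0.341 CPM in LacZ (1.81 ± 0.38, adjusted p = 0.00565), without overlap. Of the 12 TNFα calls, Wnt10b and Fzd9 were kept under every omission. The other 10 missed the threshold at an adjusted p of 0.0522 to 0.201, among them Dkk1, Fzd4, Fzd8, Sfrp1, Sfrp2 and Wnt5a without replicate 3 or 4, Sfrp4 without 3, Dkk2 without 4, Wnt5b without 1, 3 or 4 and Dkk3 without 1, 2 or 3.

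The interaction with TNFα was called for 3 members, all negative, against 7.7% of all genes negative and 8.38% positive. Wnt10b went from 0.994 ± 0.256 to 1.47 ± 0.168 CPM under TNFα in LacZ fibroblasts and from 0.866 ± 0.235 to 0.22 ± 0.177 CPM in iCre fibroblasts (interaction -2.52 ± 0.56, adjusted p = 0.00544). Fzd5 had one of -0.85 ± 0.28 (adjusted p = 0.0496, or 0.0514 without a count filter) and Fzd7 of -0.44 ± 0.14 (adjusted p = 0.0461, or 0.0574 without a count filter). All 3 were lost without replicate 3 or 4 and Fzd7 also without 1 or 2, at an adjusted p of 0.0528 to 0.32. The positive count was 0. At an unadjusted p under 0.05, 6 were negative and 1 positive, against 12.9% and 14.5%, and DESeq2 called 6 negative and 0 positive, against 15.6% and 14.4%. With the block 8 were negative and 2 positive, against 11.9% and 13.2%. The summed pericyte and mural markers were also higher in iCre than in LacZ with TNFα, 801 against 208 CPM, with libraries from 301 to 1153 and from 71.7 to 368 CPM. Of these 3 markers Rgs5 and Cspg4 had higher means in iCre, while Myh11 had 0.341 against 0.628 CPM. The fibroblast marker sum was lower, 18081 against 30404 CPM, mostly through the collagen genes, with Col3a1 at 3402 against 11835 CPM. Of the 6 other fibroblast markers, Pdgfra (1141 against 1897 CPM), Dcn (1247 against 1848 CPM) and Tcf21 (14.8 against 49.3 CPM) had lower means in iCre, Vim (4787 against 2825 CPM) and Thy1 (743 against 368 CPM) had higher ones, and Ddr2 had 547 against 544 CPM. The part of these lists in the differences was not tested.

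**Figure D4:**
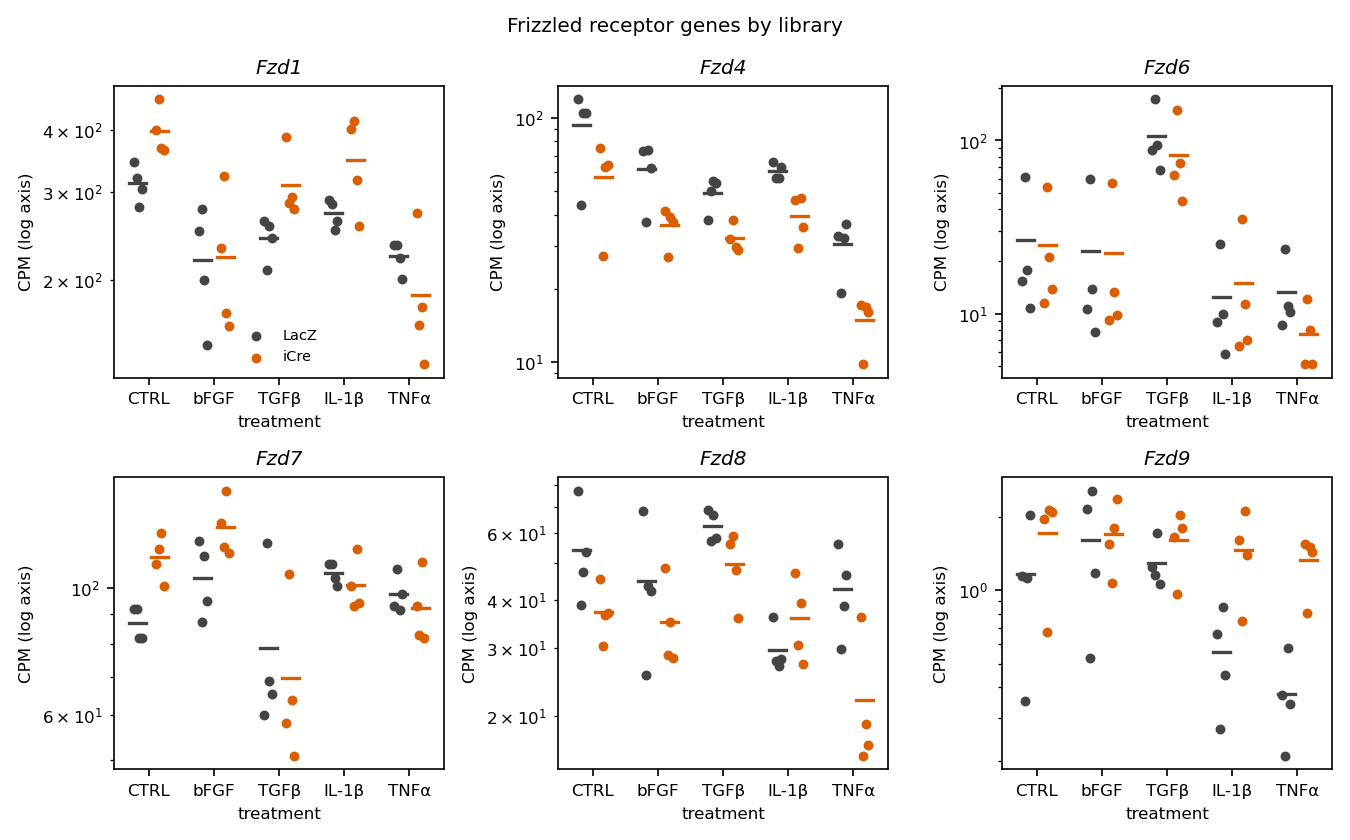
Expression of 6 Frizzled receptor genes in CPM (log axis) by treatment, with 1 point per library, LacZ in grey, iCre in orange and a bar at the mean of 4 libraries. Fzd6 is highest under TGFβ (means of 106 CPM with LacZ and 82.8 CPM with iCre) with 1 library above the others in most groups, Fzd4 is lower in iCre under TNFα (14.9 against 30.3 CPM), and Fzd9 is higher there (1.32 against 0.376 CPM).

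The rest of the pathway was followed in 48 genes, of which 46 were tested and Sost and Sostdc1 were too low. In LacZ fibroblasts 17 of the 46 were higher and 14 lower with TGFβ, against 17.5% and 19.3% of all genes. With bFGF 4 were higher and 4 lower, against 7.0% and 4.64% (9 and 12 with the block, against 14.2% and 13.1%). With TNFα 2 were higher and 9 lower, against 10.9% and 10.4% (8 and 17 with the block, against 17.2% and 18.4%). With IL-1β 5 were higher and 4 lower, against 11.1% and 9.55% (16 and 9 with the block, against 16.3% and 17.3%).

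Among 11 textbook target genes of β-catenin, TGFβ raised 4 and lowered 5, against 17.5% and 19.3% of all genes, so the list did not move in 1 direction (median log2 fold change -1.24). The block gave 4 and 5 as well, against 4935 and 5660 of 25210 genes. Nkd2 rose from 15.7 ± 8.07 to 69.8 ± 26.0 CPM (2.17 ± 0.38) and Lef1, a β-catenin partner, from 0.218 ± 0.0675 to 1.27 ± 0.505 CPM (2.55 ± 0.41). Axin2, a feedback inhibitor, fell from 3.25 ± 1.46 to 1.2 ± 0.623 CPM (-1.41 ± 0.41), Nkd1 from 14 ± 7.99 to 5.86 ± 0.595 CPM (-1.24 ± 0.34) and Apcdd1 from 24.2 ± 7.11 to 9.68 ± 2.09 CPM (-1.30 ± 0.22). TNFα lowered 4 of the 11 and raised 0, against 10.4% and 10.9% of all genes (5 and 0 with the block, against 18.4% and 17.2%). With TNFα, Axin2 stood at 0.988 ± 0.31 CPM (-1.71 ± 0.36, adjusted p = 0.00781) and Nkd1 at 3.27 ± 1.41 CPM (-2.10 ± 0.42, adjusted p = 0.00626). IL-1β raised 1 and lowered 2, against 11.1% and 9.55% of all genes (3 and 2 with the block, against 16.3% and 17.3%), of which Nkd1 went to 4.57 ± 1.01 CPM (-1.61 ± 0.36). Axin2 and Nkd1 missed the threshold with TGFβ without replicate 3 or 4, Axin2 with TNFα without 3, and Nkd1 with IL-1β without 4, at an adjusted p of 0.0515 to 0.0863.

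Of the R-spondin group, whose ligands amplify WNT signals through LGR receptors, TGFβ raised 4 of 9 and lowered 3, against 17.5% and 19.3% of all genes. Lgr6 rose from 3.27 ± 1.12 to 14.7 ± 5.54 CPM (2.19 ± 0.33). It fell with IL-1β to 1.43 ± 0.648 CPM (-1.18 ± 0.34) and with TNFα to 1.23 ± 0.353 CPM (-1.40 ± 0.29), and the fall with IL-1β missed the threshold whichever replicate number was left out, at an adjusted p of 0.0543 to 0.105. Rspo2 fell with TGFβ from 17.2 ± 8.77 to 5.91 ± 4.37 CPM (-1.52 ± 0.51). The call was lost without replicate 1, 3 or 4, at an adjusted p of 0.0782 to 0.12. Rspo1 stood at 0.402, 4.81, 0.621 and 0.232 CPM in LacZ CTRL and 0.0276, 0.282, 0.321 and 0.189 CPM with TGFβ (-2.82 ± 0.99, adjusted p = 0.0466). Replicate 2 was far above the other CTRL libraries, the groups overlapped, and without replicate 2 the log2 fold change was -1.23 (adjusted p = 0.2). The call was lost whichever replicate number was left out.

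Among co-receptors and alternative receptors, Ror1, a receptor of WNT5A, rose with TGFβ from 38.4 ± 7.15 to 117 ± 31.0 CPM (1.63 ± 0.21) and Lrp6 fell with TNFα from 356 ± 57.2 to 176 ± 16.4 CPM (-1.02 ± 0.12). The further antagonist Frzb, an SFRP relative, rose with bFGF from 220 ± 71.8 to 593 ± 116 CPM (1.45 ± 0.24, adjusted p = 0.00574), as did Notum, an enzyme that removes the WNT lipid (0.63 ± 0.22 to 1.93 ± 1.07 CPM, 1.65 ± 0.45). Porcn, the enzyme that attaches it, fell from 11.4 ± 2.64 to 5.45 ± 1.6 CPM (-1.04 ± 0.25). Without replicate 3 all 3 calls with bFGF were lost, Notum also without 1, 2 or 4 and Porcn without 1 or 4, at an adjusted p of 0.0511 to 0.275. Wif1, which binds WNT ligands, fell with TGFβ from 1.80 ± 0.748 to 0.731 ± 0.371 CPM (-1.29 ± 0.45) and with TNFα to 0.641 ± 0.242 CPM (-1.49 ± 0.39). Both calls were lost without replicate 3 or 4 and that with TGFβ without 1, at an adjusted p of 0.0685 to 0.156. Pygo1, a nuclear cofactor, fell with TGFβ from 20.7 ± 2.02 to 9.93 ± 1.74 CPM (-1.05 ± 0.14).

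Between iCre and LacZ fibroblasts, 0 of the 46 genes differed in either direction without ligand, against 0.0278% of all genes higher and 0.0476% lower, or with bFGF, against 0.0%. With the block 7 were higher and 9 lower without ligand, against 6.79% and 7.7%, and 7 higher and 8 lower with bFGF, against 6.64% and 7.22%. Under TGFβ iCre had 3 higher and 4 lower, against 2.51% and 5.87% of all genes (9 and 13 with the block, against 9.67% and 11.1%). IL-1β gave 4 higher and 5 lower, against 7.14% and 8.98% (13 and 11 with the block, against 14.6% and 14.9%). TNFα gave 8 higher and 7 lower, against 14.8% and 12.6% (14 and 11 with the block, against 17.1% and 15.1%). Frzb was lower in iCre with TGFβ, at 149 ± 58.1 against 432 ± 154 CPM (-1.56 ± 0.32, adjusted p = 0.014), and with IL-1β, at 203 ± 73.5 against 415 ± 134 CPM (-1.05 ± 0.27, adjusted p = 0.0257). The call was lost with TGFβ without replicate 3 or 4 and with IL-1β without 1 or 3, at an adjusted p of 0.0904 to 0.17.

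With TNFα, Rspo3 had 13.9, 121, 8.04 and 10.3 CPM with the LacZ virus, while the iCre libraries held 3.05, 9.28, 2.63 and 2.59 CPM (-3.10 ± 0.92, adjusted p = 0.0316). Replicate 2 was the highest library of both groups and the groups overlapped, although iCre was the lower in 4 of 4 replicate numbers. Without replicate 2 the log2 fold change was -1.96 (adjusted p = 0.000364), and without 1, 3 or 4 the call was lost, at an adjusted p of 0.0641 to 0.08. Ror1 had 11.8 ± 8.51 against 32.8 ± 8.74 CPM (-1.45 ± 0.43), Lgr4, an R-spondin receptor, 8.25 ± 2.24 against 17.7 ± 7.92 CPM (-1.08 ± 0.30) and Nkd1 1.29 ± 0.682 against 3.27 ± 1.41 CPM (-1.32 ± 0.41). All 3 missed the threshold without replicate 3, Ror1 also without 4 and Nkd1 without 2 or 4, at an adjusted p of 0.0502 to 0.166.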

How the data were processed

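The authors deposited whole-number read counts per Ensembl gene for 40 libraries, made from single-end polyA RNA reads with FastQC (0.10.1 per the labels), STAR on mm10 and HTSeq 0.10.0, without normalization. The library kit is named differently in the labels and in the methods, and the annotation release is not given in the sources used here. Gene names, lengths and positions came from GENCODE M21 (52133 of 55414 identifiers matched) and promoters from RefSeq (GRCm38.p6). Reads were counted without molecular identifiers, so intervals and floors cover counting error only.

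The main test was edgeR's quasi-likelihood F-test (edgeR 4.0.16, R 4.3.3) on TMM-normalized groups of 4, using the 8 libraries compared or, for interactions, 16. Genes with fewer than 10 counts in all were left out, p-values were adjusted by Benjamini-Hochberg over 25210 genes, and the threshold was 0.05. Levels are CPM on TMM library sizes. Each comparison was also run with DESeq2 1.42.0, RLE normalization, the filterByExpr filter, no filter, without each replicate number, and with a replicate block alone or with a GC correction. The script was tested on simulated counts. Tables were made with Python 3.11.15.

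Same-numbered libraries deviated together in every pair of groups compared (correlation over 13090 genes 0.30 to 0.857, mean 0.546 for the same number and -0.155 for different numbers), so the numbers were taken to pair the samples. Whether replicates were separate animals or pools is not stated per library.

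The members and lists were chosen with earlier results of these data known. Values in every library are given for Wnt5a, Sfrp2 and Dkk2 in each group and, in the comparisons that called them, for up to 14 members that reached 1 CPM in a group and changed by a log2 fold change of at least 1 in a LacZ ligand or iCre against LacZ comparison. Sfrp1 also met this rule and is given by group means. Dkk1, below 1 CPM, is given by library because it was singled out after its values were seen. Other pathway genes were named at the same threshold. The result of 1 marker list is not reported here.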

Additional observations from a re-analysis of the deposited data

Results flagged for a closer look

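Of 150 sets of 4 libraries tested against Dixon's critical value, 14 had a library apart from the other 3, and chance gives about 1 in 20. Replicate 2 was that library in 11 of them. It was the highest for Fzd6 in LacZ CTRL (61.9 CPM), LacZ bFGF (60.1), LacZ TNFα (23.6) and iCre bFGF (56.8), for Dkk2 in LacZ CTRL (27.1), for Wnt11 in LacZ TNFα (5.07), for Wnt4 in LacZ bFGF (5.71) and for Wnt5a in LacZ TGFβ (255). It was the lowest for Fzd4 in iCre TNFα (9.8) and for Fzd9 in iCre CTRL (0.673) and iCre TNFα (0.809). Replicate 1 was the highest for Sfrp2 in iCre TNFα (5.65) and for Sfrp4 in iCre CTRL (15.1) and iCre TNFα (3.15).

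Responses that differed between iCre and LacZ fibroblasts, by the interaction test, were those to IL-1β of Wnt4 (2.91), Wnt11 (1.75), Wnt2b (1.62) and Fzd7 (-0.46), and those to TNFα of Wnt10b (-2.52), Fzd5 (-0.85) and Fzd7 (-0.44), all in log2 units.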

How the results depend on the processing

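All 102 calls of a member in a comparison were kept with DESeq2 and with the replicate block. RLE normalization kept 101, the block with GC correction 101, no filter 100, and the filterByExpr filter 98 with 1 lost and 3 calls not tested. Without replicate 1, 2, 3 or 4, 77, 94, 45 and 58 were kept. Every omission left the same number of libraries, and the cause of the losses was not tested. The 1 value that reversed was Fzd3 in iCre IL-1β against CTRL, 0.10 with block and GC correction. Of 150 levels, 3 moved by more than 1 SD with raw library sizes.

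Counts of changed members rose with the block, and with block and GC correction, as follows. For bFGF they were 17 and 16 in LacZ and 12 and 13 in iCre. For IL-1β they were 20 and 21 in LacZ and 15 and 17 in iCre. For TNFα they were 23 and 23 in LacZ, and 20 in iCre with block and GC correction. For iCre against LacZ they were 12 and 12 in CTRL, 10 and 11 with bFGF, 9 and 7 with TGFβ and 14 and 13 with IL-1β. For interactions they were 1 and 2 with TGFβ, 10 and 9 with IL-1β and 10 and 10 with TNFα. DESeq2 gave 7 for bFGF and 5 for IL-1β in iCre, 5 for iCre against LacZ in CTRL, and interactions of 1 with TGFβ and 6 with TNFα. Without a filter bFGF gave 3 in iCre and the TNFα interaction 1.

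Calls over all genes rose with the block as well, for example from 610 to 4207 for bFGF in iCre, and for iCre against LacZ from 19 to 3655 in CTRL and from 0 to 3492 with bFGF.

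Leaving out 1 replicate number gave these ranges. LacZ had 1 to 12 with bFGF, 10 to 15 with TGFβ, 7 to 15 with IL-1β and 8 to 16 with TNFα. iCre had 0 to 11, 8 to 15, 0 to 7 and 6 to 14. iCre against LacZ had 0 to 4 in CTRL, 0 to 2 with bFGF, 0 to 5 with TGFβ, 2 to 8 with IL-1β and 3 to 14 with TNFα. Interactions had 0 to 0 with bFGF, 0 to 2 with TGFβ, 1 to 3 with IL-1β and 0 to 4 with TNFα. Calls over all genes varied in the same omissions. LacZ had 332 to 4595 with bFGF, 6532 to 9354 with TGFβ, 2324 to 5893 with IL-1β and 2645 to 5917 with TNFα. In iCre they were 0 to 3193, 6810 to 10087, 1727 to 4566 and 3519 to 6404. iCre against LacZ gave 0 to 701 in CTRL and 0 to 253 with bFGF. With TGFβ, IL-1β and TNFα these were 506 to 3158, 1558 to 4191 and 3276 to 6837. Interactions had 0 to 1 with bFGF, 323 to 1329 with TGFβ, 597 to 1728 with IL-1β and 1360 to 3888 with TNFα. Members below 1 CPM rest on few reads, and a missing call there says little.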
